A study of Mus musculus with 3 samples.

Results

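The genes described here are 8 members of the Slc16 family of monocarboxylate transporters, Slc16a1, Slc16a7, Slc16a3, Slc16a8, Slc16a10, Slc16a12, Slc16a11 and Slc16a13, together with Bsg, which encodes basigin. They were chosen by name, and all 9 were found by symbol among the 36809 genes present in the tables of every library. The libraries came from Testis, Brain and Liver of male C57BL/6 mice aged 11 weeks, untreated as far as the labels say, with 1 strand-specific library of polyadenylated RNA per organ. The labels do not say how many animals gave each library. Abundance is given as FPKM, fragments mapped to a gene scaled for transcript length and for library size, with the lower and upper bound that the authors deposited for each estimate.

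Monocarboxylate transporters are membrane proteins that carry lactate, pyruvate, ketone bodies and related small acids. MCT1 (Slc16a1), MCT2 (Slc16a7), MCT3 (Slc16a8) and MCT4 (Slc16a3) move lactate together with a proton, and cells use them to export or take up lactate. Basigin is a membrane protein of the immunoglobulin superfamily that accompanies MCT1, MCT3 and MCT4 to the cell surface, while embigin (Emb) is the usual partner of MCT2. In testis, Sertoli cells release lactate that germ cells use as fuel. In brain, lactate transport takes place at the blood vessels, in glia and in neurons, and in liver hepatocytes take up lactate for glucose synthesis. The other family members have other cargo: Slc16a10 encodes TAT1, which carries aromatic amino acids and thyroid hormone, Slc16a12 encodes MCT12, a creatine transporter, and Slc16a11 and Slc16a13 encode MCT11 and MCT13, which have been linked to lipid metabolism in liver.

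The family shares a signature at the start of the first membrane span, and its codons are shown here because they are what all 8 transporters have in common by sequence. The coding bases were taken from the longest complete GENCODE M21 coding sequence of each gene, and capitals mark the 18 bases of the signature:
Slc16a1: cccccaGATGGAGGCTGGGGGTGGgcagtg
Slc16a7: cctcccGACGGAGGGTGGGGCTGGgtcgta
Slc16a3: gcccccGATGGGGGCTGGGGCTGGgccgtc
Slc16a8: cctccgGATGGTGGCTGGGGCTGGgtggtg
Slc16a10: ccccccGAGGGCGGCTGGGGCTGGttggtg
Slc16a12: cctccaGATGGAGGCTGGGGCTGGatgata
Slc16a11: cccccgGACGGGGGCTGGGGCTGGgtggtg
Slc16a13: ccccccGACGGGGGCTGGGGATGGatggtg

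Each transporter held the signature once, and 15 or 16 of its 18 bases equalled those of Slc16a7. The signature was found by a search for a residue pattern, so likeness within it follows in part from the search. Identity over the whole translated coding sequences is counted in residues, a different measure. Slc16a1 and Slc16a7 shared 58.0% of 481 aligned residues, Slc16a3 and Slc16a8 shared 57.7% of 466, and Slc16a11 and Slc16a13 shared 47.1% of 425. Slc16a10 had 26.2% to 33.2% identity to the other 7. The upper part of that range also held pairs of other members, such as Slc16a1 and Slc16a11 at 32.4%. No pair was near-identical.

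The membrane span of basigin carries a glutamate, unusual inside a membrane, that it shares with its relatives neuroplastin (Nptn) and Emb. The 23 codons of the most hydrophobic stretch in the C-terminal part of each are shown to place the glutamate codon, in capitals:
Bsg: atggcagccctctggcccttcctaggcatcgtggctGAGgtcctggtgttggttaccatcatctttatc
Nptn: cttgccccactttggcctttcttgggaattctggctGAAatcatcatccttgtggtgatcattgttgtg
Emb: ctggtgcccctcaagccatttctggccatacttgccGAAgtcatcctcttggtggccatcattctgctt

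All 3 held 1 glutamate codon in this stretch, at the same place within it. Whole translated sequences shared 44.5% of residues between Bsg and Nptn and 30.4% between Bsg and Emb. These are the longest complete coding sequences, of 389 residues for Bsg, 397 for Nptn and 330 for Emb. Which isoforms the 3 organs hold was not tested.

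Each organ gave 1 library, which leaves variation between animals unmeasured, and differences are therefore given by size with no test. The call of a gene as higher or lower needed a 4-fold difference or more on the log2(FPKM + 1) scale, with deposited intervals that were apart. Those intervals reflect estimation error inside 1 library. Depth read from them, as implied fragments, was 40.9 M for testis, 31.8 M for brain and 86.4 M for liver. Among genes of 1 to 2 FPKM the interval typically reached 19.4% to either side of the value in testis (median), 18.3% in brain and 12.6% in liver, so liver values were the most precise. In whole organs, fewer cells of a type and less RNA per cell cannot be told apart.

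Markers were read against the labels. In testis, brain and liver, spermatid genes summed to 36661, 29.0 and 0.244 FPKM and spermatocyte genes to 7349, 19.4 and 0.553, with all 5 of each list called higher in testis than in either other organ. All 5 neuron, 5 astrocyte and 5 oligodendrocyte genes were called lower in testis than in brain, with sums of 0.462, 28.5 and 9.78 FPKM in testis and 1783, 620.2 and 2334 FPKM in brain. Hepatocyte genes summed to 29.3 FPKM in testis, 2271 in brain, where Trf and Ttr made up nearly all of it, and 56161 in liver. Sertoli genes summed to 768, 709 and 1163 FPKM in testis, brain and liver, nearly all of it Clu, and Leydig genes to 420.0, 0.893 and 25.5. Of the Leydig sum in testis, 299 FPKM was Insl3, whose estimate was marked FAIL with an interval of 0 to 339.6. Erythroid genes summed to 16.3, 392 and 182 FPKM, macrophage genes to 16.0, 55.6 and 38.4, and endothelial genes to 8.31, 80.5 and 11.8. The defining markers of each organ were thus present under its label.

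**Figure D1:**
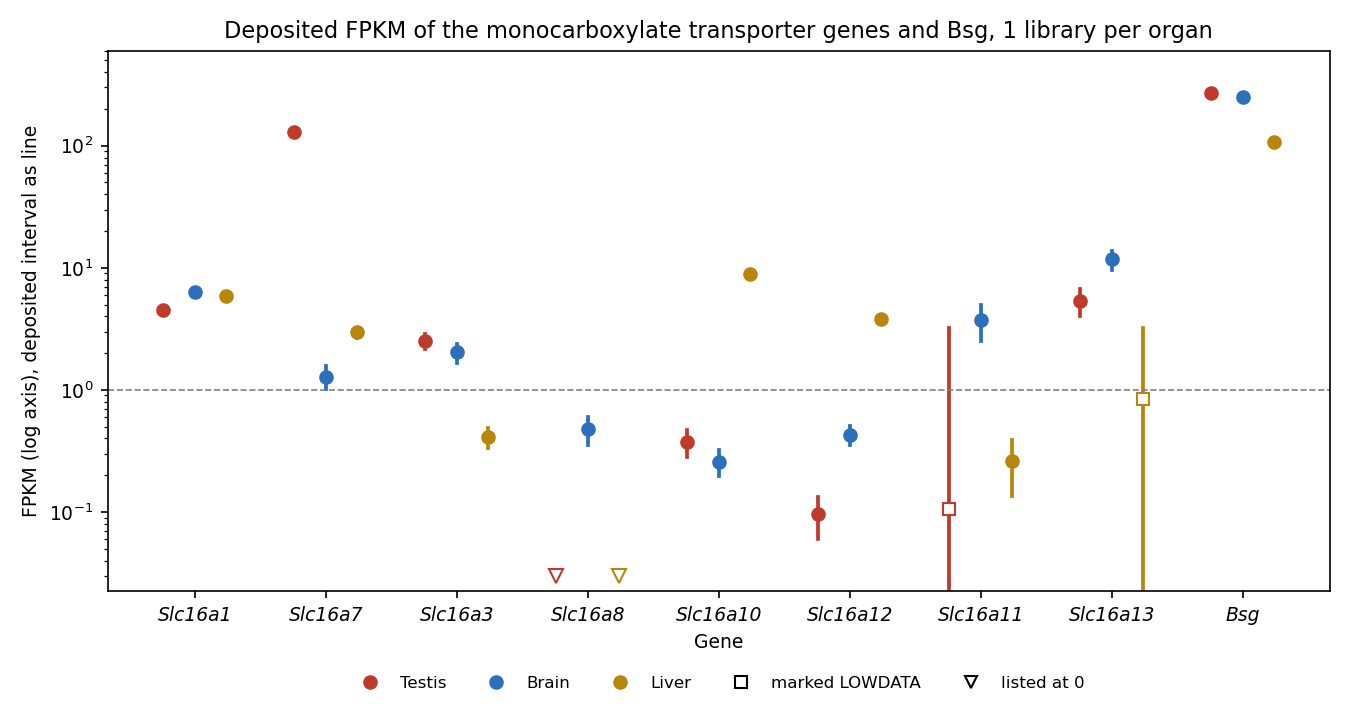
FPKM of the 9 genes (log axis) in the testis, brain and liver libraries, 1 point per library, with the deposited interval as a line; open squares are estimates marked LOWDATA, open triangles are genes listed at 0, and the dashed line is 1 FPKM. Slc16a7 in testis (130.3 FPKM) stands far above its brain and liver values, and Bsg is above 100 FPKM in every library.

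Slc16a7 held the widest difference between organs of the 9 genes. This gene, on chromosome 10 (mm9, 124663520 to 124766019, minus strand), was at 130.3 FPKM in testis (interval 128 to 132), 1.29 in brain (1.01 to 1.56) and 2.95 in liver (2.68 to 3.22). Testis was thus high and both other organs were low, with all 3 intervals apart. The implied fragments behind these values numbered 19660, 89.5 and 481. Testis exceeded brain 101-fold (82.5 to 130.3 from the interval bounds) and liver 44.1-fold (39.8 to 49.2). On the log2(FPKM + 1) scale the differences were 5.84 and 5.05. Of all 20163 protein-coding genes, 3.23% differed by as much or more between testis and brain, and 6.94% between testis and liver. With the 3 scalings the log2 differences of Slc16a7 ran from 5.33 to 5.73 against brain and from 4.13 to 5.15 against liver. The interval bounds above leave out this dependence on scaling. In testis 95.9% of protein-coding genes had a lower FPKM than Slc16a7, against 44.1% in brain and 69.4% in liver.

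The brain library held traces of spermatid transcripts, and their level was set beside that of Slc16a7. Prm1, Prm2, Tnp1, Tnp2 and Smcp, which pack sperm DNA or serve the sperm tail, stood in brain at 0.0586% to 0.0940% of their testis FPKM. Slc16a7 stood in brain at 0.987% of its testis FPKM, more than 10 times those shares. In liver the spermatid genes were at 0.00116% of testis or lower and Slc16a7 was at 2.27%. The shares in brain depend on the genes chosen. Among spermatocyte genes, Ldhc stood in brain at 0.0762% of testis, while Hspa2 was at 13.3 FPKM in brain and 432 in testis. The source of the Slc16a7 transcripts in brain was not tested.

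Slc16a1, which encodes the most widely expressed lactate transporter, was nearly level across the organs as deposited. This gene on chromosome 3 (mm9, 104442591 to 104462385, plus strand) was at 4.51 FPKM in testis (4.28 to 4.74), 6.39 in brain (6.11 to 6.68) and 5.86 in liver (5.68 to 6.05). The 3 intervals were apart, but the whole range was small: brain exceeded testis 1.42-fold (1.29 to 1.56) and liver exceeded testis 1.30-fold (1.20 to 1.41). Of the protein-coding genes 78.0% had as wide a range or a wider one over the 3 libraries on the log2 scale. Brain was 1.09-fold above liver (1.01 to 1.18), a direction that turned with median-ratio scaling, where the log2 difference became -0.90. The same scaling widened the log2 difference between testis and liver to -1.24, against -0.32 as deposited. The protein-coding FPKM sum widened that between testis and brain to -1.05, against -0.42 as deposited, so the near-level pattern depends on the scaling.

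Slc16a3 encodes MCT4, which exports lactate from glycolytic cells. It lies on chromosome 11 (mm9, 120809794 to 120822182, plus strand) and was at 2.50 FPKM in testis (2.16 to 2.84), 2.03 in brain (1.67 to 2.40) and 0.410 in liver (0.335 to 0.486). Testis and brain overlapped in their intervals and their order turned with both scalings to an FPKM sum, while liver was apart from both. Testis exceeded liver 6.10-fold and brain exceeded liver 4.95-fold in FPKM. Neither reached the 4-fold call on the log2(FPKM + 1) scale, which understates differences of low genes, with 1.31 and 1.10. With median-ratio scaling these log2 differences were 0.82 and 0.58. The locus overlaps that of Csnk1d on the opposite strand, which stood at 103, 21.1 and 10.1 FPKM in the same libraries. The libraries kept strand, per the labels, but whether the counting used it is not given in the sources used here, so reads of Slc16a3 and Csnk1d may not be fully separated.

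Slc16a8, the gene of MCT3, known from the retinal pigment epithelium and the choroid plexus, was the lowest of the 4 lactate transporter genes. It lies on chromosome 15 (mm9, 79081444 to 79085191, minus strand). Its level was 0.477 FPKM in brain (0.352 to 0.602, about 58.0 implied fragments), and it was listed at 0 in testis and in liver, so no fold is given. Of 8 markers of choroid plexus and pigment epithelium, testis had 2 that reached 1 FPKM, brain 6 and liver 1, with sums of 97.6, 1652 and 6286 FPKM. In brain and in liver that sum was almost all Ttr, and 5 of the 8 were listed at 0 in liver. The 2 in testis were Best1, at 66.6 FPKM, and Folr1, at 30.2 FPKM with the estimate marked FAIL and an interval of 0 to 62.2. The pigment epithelium genes did not share a pattern. Rpe65 had 0.0732 FPKM in testis, against 0.0754 in brain, Rlbp1 had 0.217 in testis, against 3.75 in brain, and Best1 was at 0.316 in brain. The choroid plexus genes Otx2 and Kcnj13 were at 5.02 and 4.02 FPKM in brain. The part of these cells in the brain value was not tested. The locus overlaps Pick1 on the opposite strand, at 28.1, 14.0 and 3.56 FPKM in testis, brain and liver.

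The summed FPKM of the 4 lactate transporter genes was 137 in testis (135 to 139.7), 10.2 in brain (9.14 to 11.2) and 9.23 in liver (8.70 to 9.76). Slc16a7 made up 94.9% of the sum in testis, 12.6% in brain and 32.0% in liver. Slc16a1 made up 3.29%, 62.8% and 63.5% in the same order. Slc16a3 made up 1.82%, 19.9% and 4.45%. The leading transcript was therefore that of MCT2 in testis and that of MCT1 in brain and in liver.

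**Figure D2:**
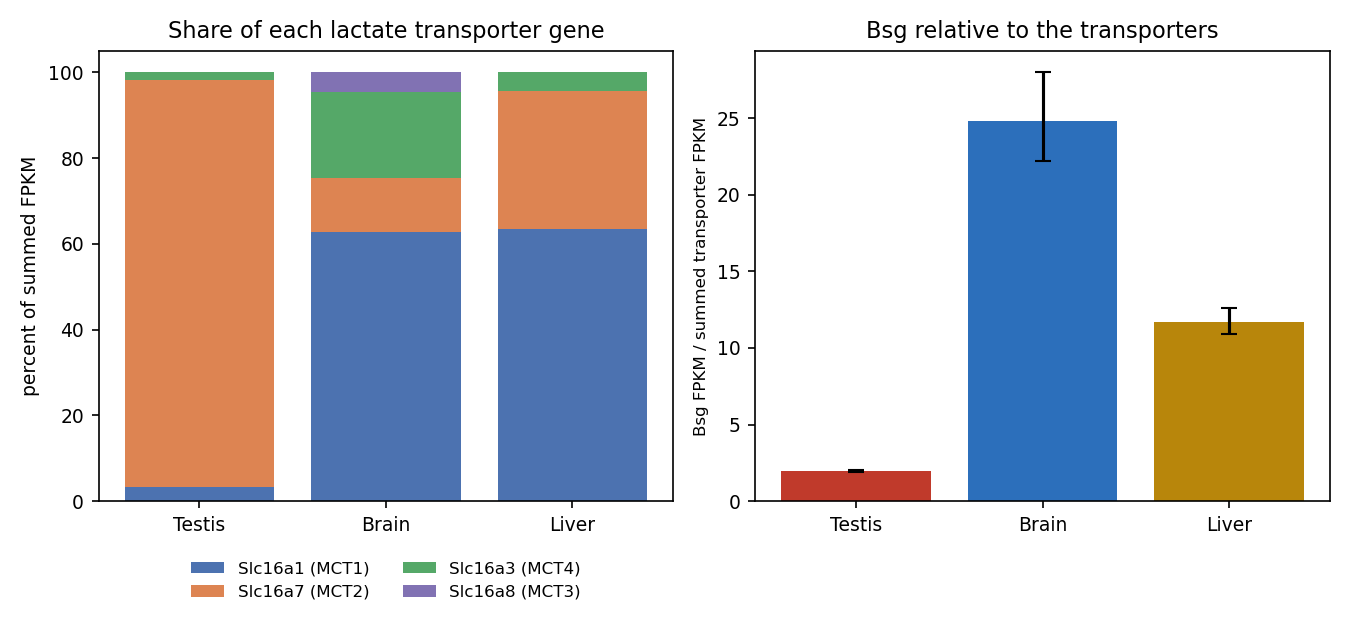
Left, percent of the summed FPKM of the 4 lactate transporter genes held by each, per library; right, Bsg FPKM divided by that sum, with bars from 0 and error bars from the deposited interval bounds. Slc16a7 fills 94.9% of the testis bar, and the ratio is 1.97 in testis, 24.8 in brain and 11.7 in liver.

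Bsg, on chromosome 10 (mm9, 79167103 to 79174724, plus strand), was abundant in every library. Its level was 271 FPKM in testis (267 to 274), 253 in brain (249 to 256) and 108 in liver (107 to 109.7), so 98.2%, 99.3% and 97.9% of protein-coding genes were below it. Testis exceeded liver 2.50-fold (2.44 to 2.57) and brain exceeded liver 2.34-fold (2.27 to 2.40), short of the 4-fold call. With median-ratio scaling these log2 differences shrank to 0.24 between testis and liver and 0.07 between brain and liver, where they were 1.32 and 1.22 as deposited. With the protein-coding FPKM sum the difference between brain and liver was 2.04, and Bsg was then called higher in brain. Testis and brain differed 1.07-fold with intervals apart, and this order turned with both scalings to an FPKM sum, with log2 differences of -0.62 and -0.45.

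Within a library, Bsg stood above the summed lactate transporters everywhere, by unequal amounts. The ratio of Bsg to their sum was 1.97 in testis (1.91 to 2.03), 24.8 in brain (22.2 to 28.0) and 11.7 in liver (10.9 to 12.6). In testis, where it was lowest, the transporters summed to 137 FPKM and Bsg was at 271. Slc16a7, whose product usually pairs with embigin, made up 94.9% of that testis sum, against 12.6% in brain and 32.0% in liver. The low testis ratio therefore restates the Slc16a7 level. Of the genes named above for products that basigin accompanies, Slc16a1 and Slc16a3 were at 4.51 and 2.50 FPKM in testis, and Slc16a8 was listed at 0. Which partner MCT2 has in testis was not tested. Being a ratio within a library, that of Bsg to the sum does not depend on how libraries are scaled.

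The relatives and partners of basigin were unlike it. Nptn, an adhesion molecule of synapses, was at 16.6 FPKM in testis (15.8 to 17.4), 264 in brain (261 to 267) and 13.0 in liver (12.5 to 13.4), and was called lower in testis than in brain and higher in brain than in liver. Emb had 3.18 FPKM in testis, with 12.2 FPKM in brain and 0.126 FPKM in liver, called higher in brain than in liver. With both scalings to an FPKM sum Emb was also called lower in testis than in brain, with log2 differences of -2.30 and -2.16. In testis, where Slc16a7 was at 130.3 FPKM, Bsg thus stood at 271 FPKM and Emb at 3.18. Xkr8, a lipid scramblase that binds basigin or neuroplastin, had 8.61 FPKM in testis, with 0.641 FPKM in brain and 0.637 FPKM in liver, called higher in testis than in brain. It was also called higher in testis than in liver, except with median-ratio scaling. Cyclophilin A (Ppia), a ligand of basigin, was at 298, 489 and 252 FPKM. Cyclophilin B (Ppib) was at 34.2, 72.2 and 180.2 FPKM and was called lower in testis than in liver. Of these 5 genes 1 was called higher and 1 lower in testis than in brain, where 11.0% and 7.19% of all genes were. The 5 genes had a median log2 difference of -1.05, or -1.76 with the protein-coding FPKM sum. Against liver, 1 was higher and 1 lower in testis (median 0.33, or -0.68 with median-ratio scaling), where 15.2% and 3.82% of all genes were. In brain 2 were higher than in liver and 0 lower (median 0.96), where 9.15% and 2.79% were. With median-ratio scaling 2 were higher and 1, Ppib, lower in brain (median -0.20), where 6.05% and 4.49% were. With the protein-coding sum and that of features of 200 bp or longer the median was 1.78 and 1.68.

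Slc16a10 and Slc16a12 were both highest in liver. Slc16a10, on chromosome 10 (mm9, 39753341 to 39862062, minus strand), was at 0.375 FPKM in testis (0.280 to 0.470), 0.258 in brain (0.196 to 0.321) and 8.87 in liver (8.66 to 9.07). It was called lower in testis and in brain than in liver, with liver 23.7-fold (18.4 to 32.4) and 34.3-fold (27.0 to 46.3) above them and log2 differences of -2.84 and -2.97. Testis and brain overlapped in their intervals.

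Slc16a12, on chromosome 19 (mm9, 34742893 to 34821779, minus strand), was at 0.0962 FPKM in testis (0.0605 to 0.132), 0.431 in brain (0.354 to 0.507) and 3.82 in liver (3.67 to 3.98), with all 3 intervals apart. It was called lower in testis than in liver (log2 difference -2.14), a call lost with both scalings to an FPKM sum. Liver was 39.7-fold (27.8 to 65.8) above testis and 8.88-fold (7.23 to 11.2) above brain. The difference of -1.75 between brain and liver missed the 4-fold call, and passed it with median-ratio scaling or a smaller pseudocount.

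The promoters of Slc16a10 and Slc16a12 are shown because these genes shared a pattern over the libraries. They are the 250 bases before the annotated start, from RefSeq on GRCm38.p6, a later build than the mm9 of the tables, and capitals mark the motifs searched on both strands:
Slc16a10, chr10:40142255-40142504, minus strand: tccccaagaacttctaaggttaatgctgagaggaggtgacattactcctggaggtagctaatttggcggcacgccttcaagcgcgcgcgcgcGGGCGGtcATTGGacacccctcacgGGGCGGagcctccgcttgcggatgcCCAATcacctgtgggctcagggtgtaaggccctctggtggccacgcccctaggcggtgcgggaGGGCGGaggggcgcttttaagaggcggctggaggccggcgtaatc
Slc16a12, chr19:34747329-34747578, minus strand: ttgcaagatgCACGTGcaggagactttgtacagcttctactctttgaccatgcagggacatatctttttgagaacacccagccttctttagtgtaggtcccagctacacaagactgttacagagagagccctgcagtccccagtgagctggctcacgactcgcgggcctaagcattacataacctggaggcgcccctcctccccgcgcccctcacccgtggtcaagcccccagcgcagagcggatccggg

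The motifs were the GC box GGGCGG, the CCAAT box CCAAT, the TATA box TATAAA, the cyclic AMP response element TGACGTCA and the E box CACGTG, and no match overlapped another. Slc16a10 held 3 GC boxes and 2 CCAAT boxes, and Slc16a12 held 1 E box. Of 32851 promoters of this length, 32.7% held a GC box, 33.8% a CCAAT box, 12.4% a TATA box, 1.55% the response element and 6.02% the E box. CpG dinucleotides numbered 21 in Slc16a10 and 11 in Slc16a12, against a median of 6 over all promoters. The table held promoters for 6 of the 9 genes. Slc16a1 and Slc16a3 had 37 and 29 CpG dinucleotides, Slc16a11 had 14 and Slc16a8 had 1. The gene listed at 0 in testis and in liver was thus the one with the fewest, which is a description of 6 sequences only.

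Slc16a13 and Slc16a11 are neighbours on chromosome 11 and both were highest in brain. Slc16a13 (mm9, 70030291 to 70034496, minus strand) was at 5.36 FPKM in testis (3.995 to 6.73), 11.7 in brain (9.65 to 13.8) and 0.839 in liver, where the estimate was marked LOWDATA with an interval of 0 to 3.23. It was called higher in brain than in liver (log2 difference 2.79), with the bounds still apart by 2.98-fold. Brain exceeded testis 2.19-fold (1.43 to 3.45).

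Slc16a11 (mm9, 70026254 to 70029919, plus strand) was at 0.105 FPKM in testis, marked LOWDATA with an interval of 0 to 3.19, 3.72 in brain (2.49 to 4.94) and 0.263 in liver (0.136 to 0.391). Brain exceeded liver 14.1-fold (6.38 to 36.4), a log2 difference of 1.90 that missed the 4-fold call, and passed it with a smaller pseudocount or with either scaling to an FPKM sum (2.38 and 2.31). The testis and brain intervals overlapped. The 2 loci lie on opposite strands with their 3' ends 371 bp apart, so reads that run past either end could be shared if strand was not used. The implied fragments were few: 128 for Slc16a13 and 36.9 for Slc16a11 in brain.

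Counted over the whole set, testis had 5 of the 9 genes at 1 FPKM or more, brain 6 and liver 5. Of 20163 protein-coding genes, 11677, 11786 and 8842 reached that level in the same order. With median-ratio scaling testis and brain had 5 each and liver 6. Between testis and brain 1 of 9 was called higher, Slc16a7, where 11.0% of all genes and 14.2% of protein-coding genes were. Lower were 0, where 7.19% of all genes and 10.4% of protein-coding genes were. Between testis and liver 1 was higher, Slc16a7 (15.2% of all genes and 20.1% of protein-coding genes), and 2 were lower, Slc16a10 and Slc16a12 (3.82% and 5.96%). Between brain and liver 1 was higher, Slc16a13 (9.15% and 13.6%), and 1 was lower, Slc16a10 (2.79% and 4.55%). These counts are too small to set the family apart from the background. As a median over the 9 genes, log2 differences were -0.38 between testis and brain, 0.00 between testis and liver, and 0.56 between brain and liver. Over all protein-coding genes, likewise without a filter, the median was 0.00, 0.23 and 0.30. Over protein-coding genes at 1 FPKM in any library it was -0.01, 0.77 and 0.69. The member medians of 0.00 and 0.56 were the values of Slc16a8, which stayed under 1 FPKM in every library. Of the 9 genes that filter would leave out Slc16a8 only, as every other member reached 1 FPKM in some library. The comparisons share libraries, so they are not independent of each other.

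**Figure D3:**
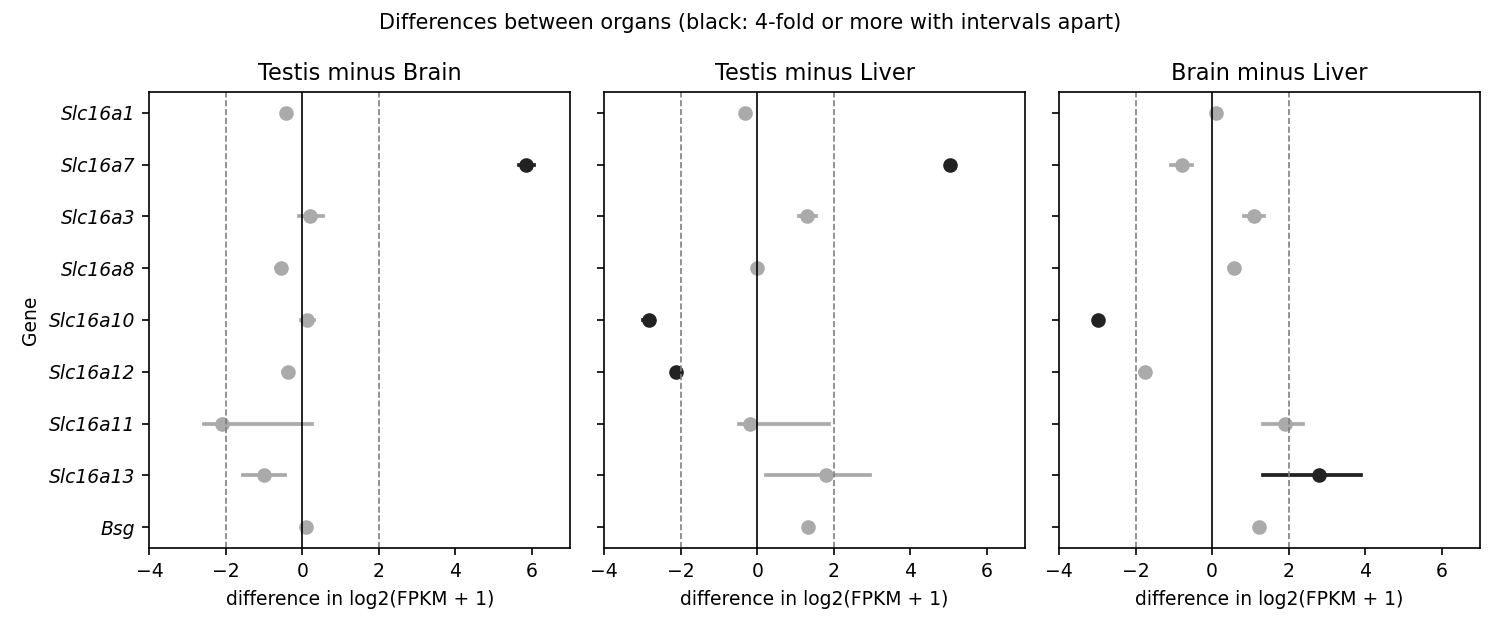
Difference in log2(FPKM + 1) of each gene in a panel for each pair of organs (first minus second), with lines from the deposited interval bounds and dashed lines at 4-fold; black marks genes called higher or lower. Slc16a7 is at 5.84 and 5.05 in the panels with testis, and Slc16a10 at -2.84 and -2.97 in those with liver.

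A further 5 Slc16 genes were read beside the members, and they were low in most libraries. Testis, brain and liver each had 1 of them at 1 FPKM or more. Slc16a6, which encodes a ketone body transporter in liver of zebrafish and is also known as a taurine transporter, was at 11.1 FPKM in testis (9.74 to 12.5), 2.40 in brain (2.08 to 2.72) and 0.761 in liver (0.629 to 0.893), called higher in testis than in liver. Slc16a5 had 0.326 FPKM in testis, with 0.00708 FPKM in brain and 1.52 FPKM in liver, and Slc16a4, Slc16a9 and Slc16a14 were under 1 FPKM in all 3 libraries. Between testis and brain 0 of 5 were called in either direction (median log2 difference -0.18). Between testis and liver 1 was called higher and 0 lower (0.26), and between brain and liver 0 were called (0.56). Of all genes 15.2% were called higher and 3.82% lower in testis than in liver. The sodium-coupled carriers Slc5a8 and Slc5a12, which take up the same acids in kidney and gut, were under 0.02 FPKM or listed at 0 in every library, and 0 of 2 were called.

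Some of the enzymes that make or use lactate and pyruvate differed between the organs in their isoforms. The germ cell lactate dehydrogenase gene Ldhc was at 6092, 4.64 and 0.0211 FPKM in testis, brain and liver, and Ldhb, whose subunit prevails where lactate is oxidised, at 44.2, 261 and 0.624. Pdha2, the retrogene copy of the pyruvate dehydrogenase E1 alpha subunit used in germ cells, was at 50.5, 0.0490 and 0.00286 FPKM, while its X-linked parent Pdha1 was at 1.73, 55.7 and 24.3. Pcx, which starts glucose synthesis from pyruvate, was at 2.50, 6.55 and 23.1 FPKM. Ldha, at 229, 64.5 and 125 FPKM, was not called in any comparison as deposited, and neither were Pdhb, Dlat and Dld. Of 11 such genes 2 were called higher and 2 lower in testis than in brain, where 11.0% and 7.19% of all genes were. The 11 genes had a median log2 difference of -0.44. With the protein-coding FPKM sum 2 were higher and 3 lower (-1.15), where 9.11% and 10.5% of all genes were. Against liver, 4 were higher and 3 lower in testis (median 0.87, or -0.21 with median-ratio scaling), where 15.2% and 3.82% of all genes were. In brain 3 were higher than in liver and 1 lower (0.42), where 9.15% and 2.79% were. That last count became 3 higher and 3 lower with median-ratio scaling (0.04), where 6.05% and 4.49% were. It became 4 higher and 0 lower with the protein-coding FPKM sum (1.24), where 14.5% and 2.11% were.

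The mitochondrial pyruvate carrier is built from the products of Mpc1 and Mpc2, whose FPKM was unequal in testis. Whether another gene supplies a subunit there was not tested. Mpc1 was at 9.60 FPKM in testis (8.37 to 10.8), 56.8 in brain (53.5 to 60.1) and 35.6 in liver, the last marked LOWDATA with an interval of 0 to 67.2. Mpc2 was at 156 FPKM in testis (153 to 159.0), 43.0 in brain (41.4 to 44.7) and 43.7 in liver (42.6 to 44.9). Mpc1 was called lower in testis than in brain, where 7.19% of all genes were, and 0 of 2 were called in the other comparisons. Their median log2 difference was -0.31 between testis and brain, 0.01 between testis and liver and 0.32 between brain and liver. With median-ratio scaling it became -1.04 between testis and liver and -0.81 between brain and liver. With the protein-coding FPKM sum it was -1.01 between testis and brain and 1.13 between brain and liver. With the sum of features of 200 bp or longer it was -0.85 and 1.03 for these pairs.

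**Figure D4:**
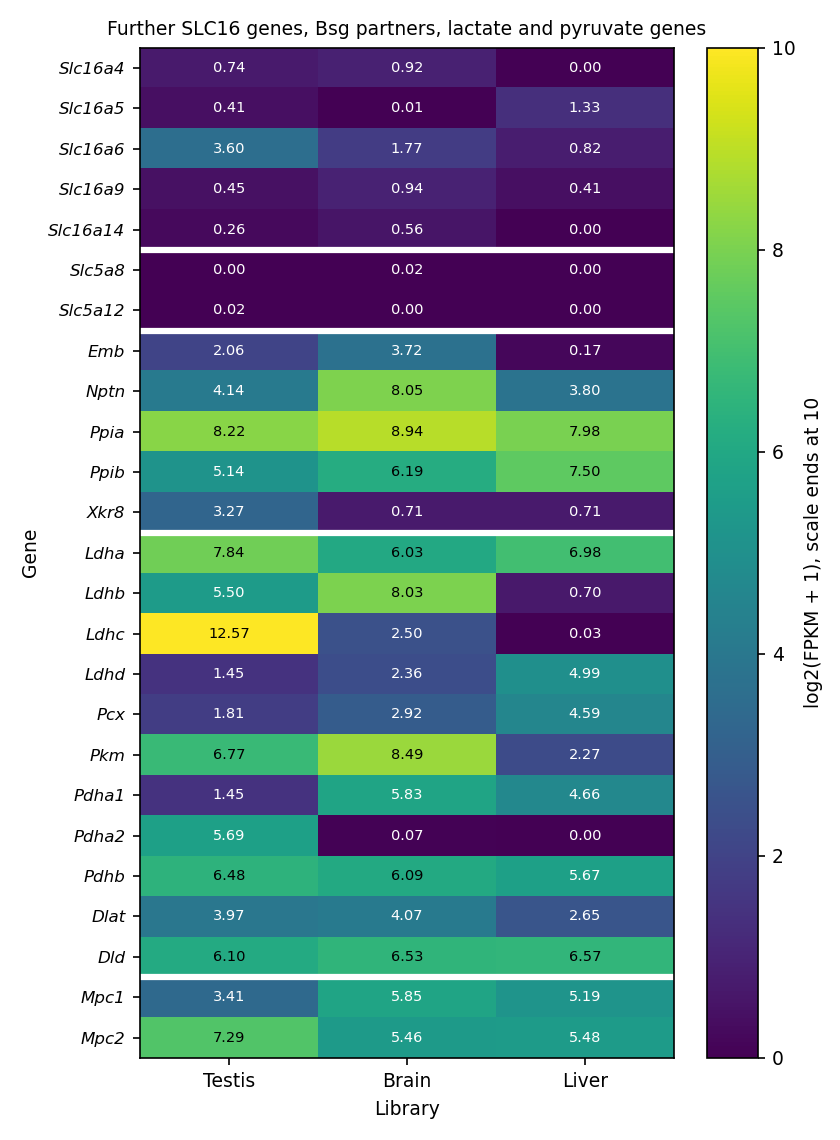
log2(FPKM + 1) of 5 further Slc16 genes, the sodium-coupled carriers, relatives and partners of basigin, enzymes of lactate and pyruvate, and the pyruvate carrier, printed in each cell for testis, brain and liver; white lines part the groups and the colour scale ends at 10. Nptn is at 264 FPKM in brain, and Ldhc in testis, at 6092 FPKM, lies past the end of the scale.

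Genes with a level pattern close to each member were sought among 18447 protein-coding genes by the Euclidean distance of log2(FPKM + 1) over the 3 libraries, for members at 5 FPKM or more in any library. The gene nearest to Slc16a7 was Tmem53, with testis, brain and liver levels of 129, 1.13 and 3.10 FPKM (distance 0.118), followed by Cep85l (0.356) and Rai14 (0.689). Few genes lay close to it, with 2 within a distance of 0.5, against 94 for Slc16a1, among them Arnt (0.0981) and Isy1 (0.183). Nearest to Slc16a10 were Slco2a1 (0.162), Hs3st3b1 and Mmp19, with 26 genes within 0.5. Nearest to Slc16a13 were Mmd2 (0.0879), Dab2ip and Ube2o, with 22. Nearest to Bsg were Rps27rt (0.375), Ubl5 and Ndufb8, the 3 genes within 0.5. A distance over 3 libraries places levels side by side and shows nothing more.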

How the data were processed

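Polyadenylated RNA of mouse testis, brain and liver, 1 library each, had been sequenced with strand kept, per the labels' protocols. Cufflinks 2.0.0, Bowtie 0.12.5 and TopHat 1.4.0 are named with the build mm9 in the submitters' processing notes. The sources used here give neither the annotation nor the filters. The authors deposited FPKM per gene with a lower and an upper bound and a status, per the file headers. The level of the bounds is not named and was taken as 95%. The tables hold no counts. Implied fragments are the square of 2 times FPKM over the upper half-width and serve as a guide to depth only.

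From the deposited FPKM, differences of log2(FPKM + 1) were computed over all 36809 genes with Python 3.11.15 and pandas 2.3.3. The calling step was tested on simulated data. The simulation held only well-covered genes with large differences and no variation between animals, so it does not bear on the low members. Symbols and classes came from GENCODE M21 by identifier, and 31856 genes had a symbol. Coordinates are those of the tables with 1 added to the start, after which 37 of 37 mitochondrial genes matched the reference. Coding sequences were aligned after translation with Biopython 1.88 (BLOSUM62, global). No sequence table of proteins was used. Where a locus was listed more than once, FPKM was summed.

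There were 17 gene lists with 92 entries, of which 90 matched. The members and the lists were chosen with earlier results of these data known. All 9 members are named, list genes may be named, and for each member at 5 FPKM or more the 3 nearest protein-coding genes were sought, of which some are not reported here. Features under 200 bp held 96.0% of the FPKM in brain, so scaling to the whole FPKM sum was not tried. Alternatives were 2 pseudocounts, 3 scalings, other minimums, size without intervals, a filter on low values and estimates marked OK only.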

Additional observations from a re-analysis of the deposited data

How the results depend on the processing

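With 1 library per organ nothing can be said of variation between animals, and several low members rest on few implied fragments. No paired analysis was possible because each organ has a single library. The call of Slc16a7 as higher in testis held under every alternative, and so did that of Slc16a10 as lower than liver in both testis and brain. No called difference of a member changed sign. Over genes at 1 FPKM in any library, the median log2 difference between testis and liver shifted by -0.67 with median-ratio scaling, and that between brain and liver by -0.56. With the protein-coding sum the shift was -0.49 between testis and brain and 0.62 between brain and liver, and with features of 200 bp or longer it was -0.36 and 0.54 for these pairs.

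Counts of members called depended on the settings, and so did the shares of all genes called. Members lower in testis than in brain numbered 0 as reported, 1 with a pseudocount of 0.1 (Slc16a8) and 2 with 0.01 (Slc16a8 and Slc16a12). They numbered 1 after scaling to either sum or without the intervals (Slc16a11 each time). Of all genes 7.19% were lower as reported, 11.7% and 13.7% with these pseudocounts, 10.5% and 9.72% with the sums and 7.88% without intervals. Members higher in testis than in liver numbered 1 as reported, 3 with either smaller pseudocount and 4 with a 2-fold minimum. The share of all genes was 15.2% as reported, 23.8% and 28.4% with the pseudocounts and 24.5% with a 2-fold minimum. Members lower in testis than in liver numbered 2 as reported and 1 with either sum, where all genes gave 3.82% as reported and 3.51% and 3.46%. Members higher in brain than in liver numbered 1 as reported and 4 with either smaller pseudocount or a 2-fold minimum. All genes gave 9.15% as reported, 16.7% and 21.5% with the pseudocounts and 19.3% with a 2-fold minimum. Such members numbered 3 scaled to protein-coding FPKM (Bsg and Slc16a11 added) and 2 scaled to features of 200 bp or longer (Slc16a11 added). They numbered 0 with estimates marked OK only, which leaves out Slc16a13. In these 3 settings all genes gave 14.5%, 13.6% and 8.9%. Members lower in brain than in liver numbered 1 as reported and 2 with either smaller pseudocount, median-ratio scaling or a 2-fold minimum. There the share of all genes was 2.79% as reported, then 4.13%, 5.04%, 4.49% and 4.85%. At a minimum of 5 FPKM, 3 members were detected in testis, 3 in brain and 3 in liver. At 0.5 FPKM liver had 6, and with median-ratio scaling brain had 5 and liver 6. The shares of all genes detected in these settings were not computed. The smaller pseudocounts raise the differences of low genes by construction; for the scalings the cause was not tested.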
